A study of Homo sapiens with 24 samples.

Results

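The 39 genes described here encode the DNA replication machinery and the enzymes that make its nucleotides. They run from the origin recognition subunits ORC1 and ORC6 through the MCM helicase, the GINS complex, the polymerases, the clamp and its loader to thymidylate synthase, ribonucleotide reductase and thymidine kinase. They were taken by name, with earlier results of these data known, and all 39 were found among the 24053 genes of the deposited table. The cells were ARPE-19, an established human line of retinal pigment epithelium. The groups were Pink1 siRNA, Nrf2 siRNA, the double siRNA against both messages, and scramble siRNA, the control. Each group had 3 biological samples with 2 technical replicates each, which were averaged. The sample labels call the treated groups knockout or KD, the design text calls them siRNA, and the growth protocol describes cells wounded with a pipette tip at near confluence, without saying whether the cells used for RNA were among them. The sources used here state no siRNA dose, time or sequence.

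Before S phase, the origin recognition complex, CDC6 and CDT1 load the MCM ring onto DNA. CDC45 and GINS then turn the ring into an active helicase, and polymerases copy the strands behind it, held to DNA by the PCNA clamp, which replication factor C loads. The messages of most of these proteins rise late in G1 under E2F transcription factors, which the retinoblastoma protein holds back. A culture with more cycling cells therefore usually holds more of them. PINK1 is a kinase that marks damaged mitochondria, and NFE2L2 encodes NRF2, a transcription factor of antioxidant genes. The comparisons ask what accompanies less of either message, or of both, in this gene set.

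The targeted messages were lowest in the groups labelled for them. PINK1 averaged 14.6 ± 3.22 TPM with Pink1 siRNA, 57.2 ± 8.35 TPM with Nrf2 siRNA, 18.7 ± 2.93 TPM with the double siRNA and 55.8 ± 1.93 TPM with scramble (SD, n = 3 each). NFE2L2 averaged 68.7 ± 4.02, 20 ± 7.72, 28.9 ± 6.16 and 80.6 ± 7.69 TPM in the same groups. TPM is transcript abundance per length, scaled to the same total in every sample, so 1 abundant transcript lowers all others. An identifier with no name, ENSG00000226958, took 41.4% of the total in the first and 15.5% in the third double siRNA replicate, and between 24.9% and 38.6% in the other 10 samples. Those 2 samples stand apart, so the double siRNA differences that turn on them are also given without them, which leaves 1 double siRNA sample. Of the pigment epithelium markers, KRT8 averaged 883 TPM, MITF 75.7 TPM and OTX2 66.3 TPM, while RPE65, an enzyme of the mature visual cycle, averaged 0.107 TPM. Of 10 such markers tested, TYR and TYRP1, enzymes of melanin synthesis, rose against scramble in each siRNA group, TYR by 1.76, 1.38 and 1.86 and TYRP1 by 2.09, 1.16 and 1.32 on the log2 scale with Pink1, Nrf2 and double siRNA (limma, highest adjusted p = 0.0248). Of 14 markers of other cell types (blood, endothelial, photoreceptor, neural, glial and epithelial), 7 were in the table, and 6 of these averaged at most 0.407 TPM. The exception was the lysosomal gene CD68, at 28.9 ± 3.19 TPM with Pink1 siRNA, 66.6 ± 33.5 TPM with Nrf2 siRNA, 40.4 ± 10.4 TPM with the double siRNA and 30.3 ± 9.80 TPM with scramble.

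All 39 genes passed the minimum mean of 1 TPM for testing, and 37 averaged at least 5 TPM over the 12 samples. TYMS, which makes thymidylate, led at a mean of 185 TPM, followed by the clamp PCNA at 183 TPM, the large ribonucleotide reductase subunit RRM1 at 152 TPM and the helicase subunit MCM7 at 119.7 TPM. Parts of the same machine differed widely in message. Within the MCM ring, MCM7 averaged 119.7 TPM and MCM4 48.5 TPM. Within GINS, GINS2 averaged 11.2 TPM and GINS1 4.56 TPM, the lowest of all. Within DNA polymerase delta, the small subunit POLD2 averaged 107 TPM and the catalytic subunit POLD1 20.8 TPM. On the scale of log2(TPM + 1), members had a median SD of 0.16 within technical pairs, while biological samples of a group had a median SD of 0.251. The biological SD was the larger for 34 of the 39. POLE2 had the largest technical SD, 0.414, and RFC4 the largest biological SD, 0.535.

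**Figure D1:**
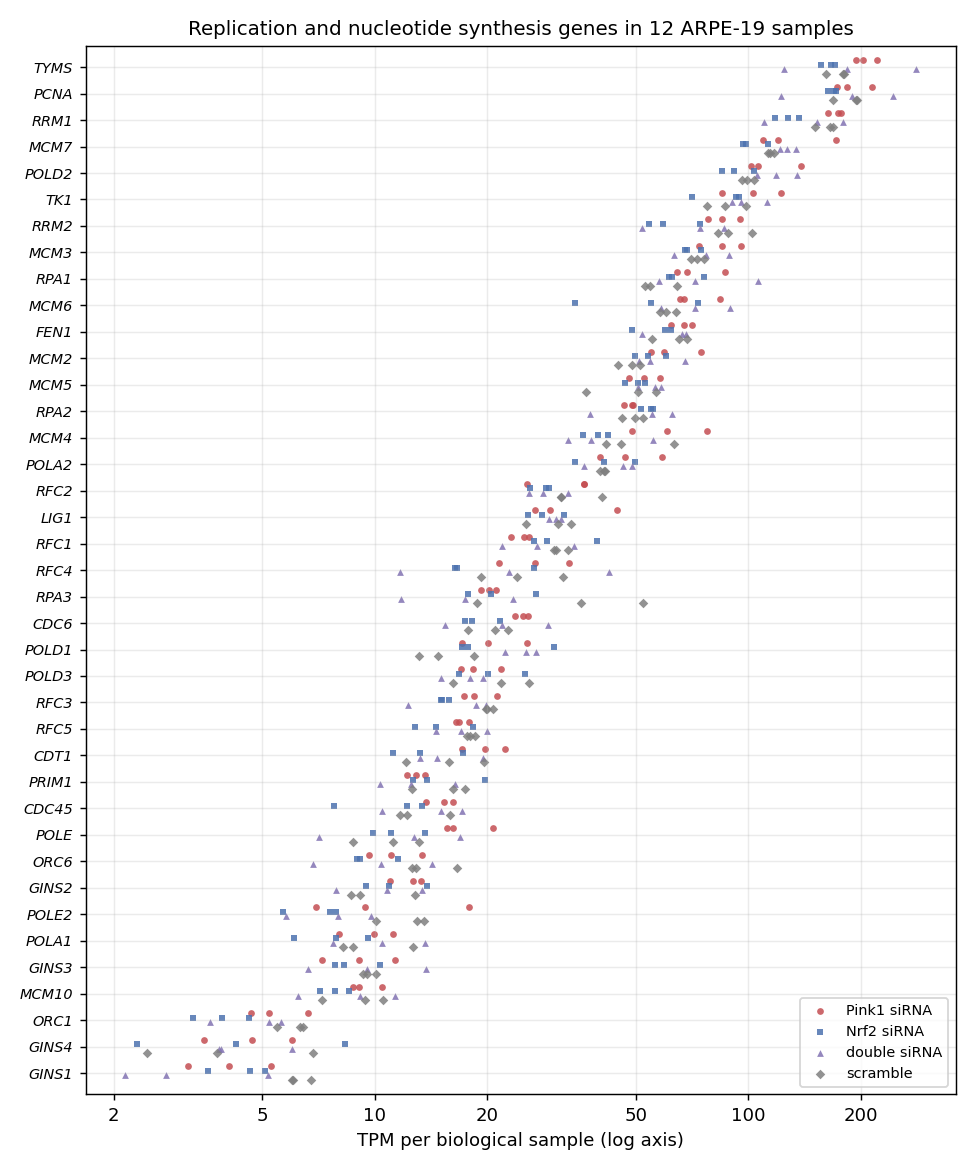
TPM of the 39 replication and nucleotide synthesis genes (rows, ordered by mean) in each of 12 biological samples, on a log axis, 3 points per siRNA group. Genes range from a mean of 4.56 TPM for GINS1 to 185 TPM for TYMS, and the 4 groups overlap for most genes.

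The upstream DNA of many of these genes holds letters of the E2F site. RefSeq windows around the start site (build GRCh38.p14) were at hand for 33 of the 39. Letters of the E2F site (TTTGGCGC, TTTCCCGC, TTTCGCGC or TTTGCCGC, either strand, overlapping matches kept) occurred in 17 of the 33, or 51.5%, against 6.87% of the 9943 tested genes with a window and 3.99% of all 27305 genes with a window. The letters CCAAT occurred in 21, or 63.6%, against 43.6% of genes tested and 39.7% of all. The core of the antioxidant response element that NRF2 binds, TGACNNNGC, occurred in 6, or 18.2%, against 19.5% of genes tested and 16.1% of all; the 6 were MCM2, PCNA, PRIM1, RFC2, RRM1 and TK1. A match describes letters and is not a bound site. The 160 bases before the start of 3 genes are shown 5′ to 3′ on the coding strand, chosen for holding different combinations, with every match of the 3 motifs in capitals. MCM6 (chr2:135876444-135876603, minus strand) has 4 E2F matches, in 2 stretches that each hold one on either strand, and 2 CCAAT boxes, POLA1 (chrX:24693758-24693917, plus strand) has 1 of each, and RRM1 (chr11:4094525-4094684, plus strand) has 1 antioxidant element core and 1 CCAAT box but no E2F match.
MCM6: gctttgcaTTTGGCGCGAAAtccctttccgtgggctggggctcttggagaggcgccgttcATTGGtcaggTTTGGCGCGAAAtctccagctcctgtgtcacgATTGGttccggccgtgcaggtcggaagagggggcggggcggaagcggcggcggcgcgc
POLA1: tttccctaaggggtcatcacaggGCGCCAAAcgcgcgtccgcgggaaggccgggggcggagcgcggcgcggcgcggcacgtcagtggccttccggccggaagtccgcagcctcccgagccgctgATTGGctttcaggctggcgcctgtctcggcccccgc
RRM1: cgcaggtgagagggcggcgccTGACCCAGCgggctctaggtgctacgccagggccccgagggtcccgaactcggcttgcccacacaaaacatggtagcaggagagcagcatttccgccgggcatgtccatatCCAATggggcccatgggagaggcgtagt

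None of the replication genes passed the test of any difference among the groups (limma's moderated F test, Benjamini-Hochberg adjusted p under 0.05 over the 13810 genes tested), against 1.13% of all genes. The lowest adjusted p was 0.343, for RRM2, and 2 members, RRM2 and GINS1, had an unadjusted p under 0.05, a level that 13.8% of all genes reached. The summed level of the 39 genes averaged 1961 ± 154 TPM with Pink1 siRNA, 1633 ± 102 TPM with Nrf2 siRNA, 1844 ± 358 TPM with the double siRNA and 1796 ± 104 TPM with scramble (SD, n = 3 each). The Nrf2 siRNA group had the lowest mean for 25 of the 39 genes, against 23.5% of all genes tested, and the Pink1 siRNA group had the highest for 18, against 24.7%. These are bulk samples, so fewer cells in S phase and less message per cell cannot be told apart.

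Samples of the double siRNA group lay further apart than the group means did. The summed level was 1801, 1975 and 2108 TPM in the Pink1 siRNA samples and 1563, 1587 and 1750 TPM in the Nrf2 siRNA samples. It was 1503, 1812 and 2217 TPM in the double siRNA samples, against 1676, 1859 and 1852 TPM in the scramble samples. The lowest and the highest of the 12 sums were thus both in the double siRNA group, and Nrf2 siRNA overlapped scramble while each Nrf2 siRNA sample lay below each Pink1 siRNA sample. Double siRNA replicate 1 was the lowest of the 12 samples for 18 of the 39 genes, or 46.2%, against 26.9% of all genes tested. Double siRNA replicate 3 was the highest for 13, or 33.3%, against 25.7%. After ENSG00000226958 was removed and TPM rescaled, these counts were 10 and 4, and the sums were 2563, 2565 and 2624 TPM in the double siRNA samples. With it removed, the sums were 2791, 2919 and 2806 TPM with Pink1 siRNA, 2230, 2583 and 2582 TPM with Nrf2 siRNA, and 2562, 2920 and 2741 TPM with scramble.

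**Figure D2:**
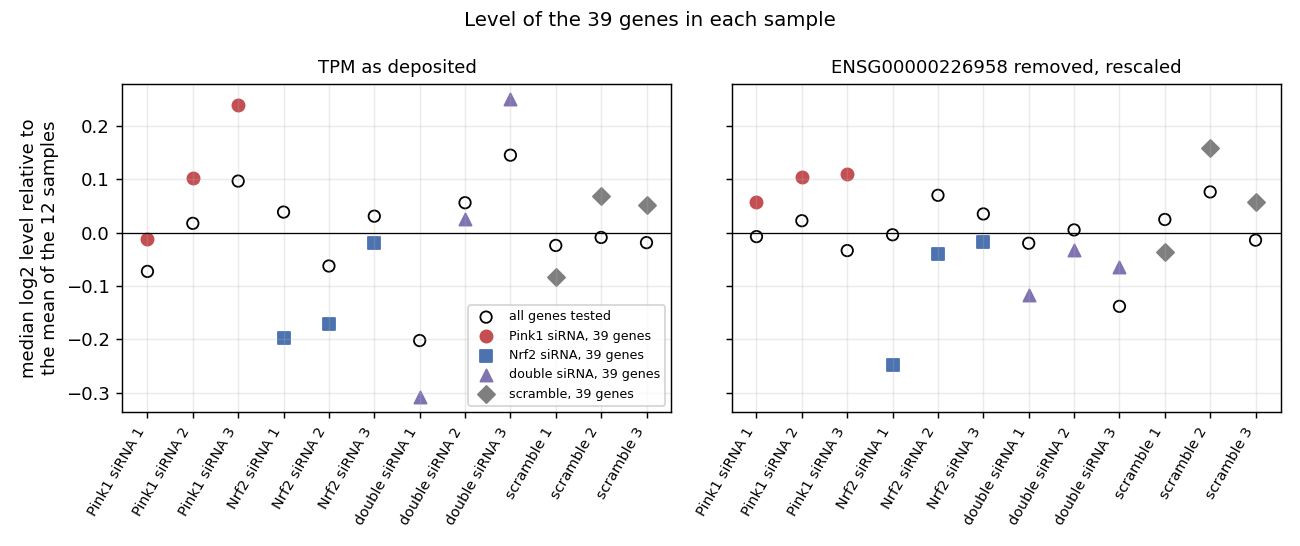
Median log2 level of the 39 genes in each of the 12 samples, relative to each gene's mean over the samples (filled symbols by siRNA group), with the median over all 13810 genes tested (open circles). On deposited TPM (left) double siRNA replicates 1 and 3 lie at -0.31 and 0.25, and without ENSG00000226958 (right) at -0.12 and -0.06.

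With Pink1 siRNA, somewhat more of the replication genes had means above scramble than below. Of the 39, 24 had a log2 difference above 0 and 15 below, against 52.7% of all genes above 0 and 46.7% below. The median difference was 0.12 on the log2 scale, beside 0.02 over all genes tested. No member was called (limma, adjusted p under 0.05), against 0.471% of all genes, and 2, POLE and MCM2, had an unadjusted p under 0.05, against 12.2%; the lowest adjusted p was 0.339, for POLE. All 3 siRNA samples lay above all 3 scramble samples for 6 members, CDC6, MCM2, MCM6, POLE, RPA1 and TYMS, against 13.8% of all genes. All 3 lay below for 2, GINS1 and RFC1, against 11.2%. The 95% interval of the difference stayed within 2-fold either way for 36 members, against 79.7% of all genes. It reached past 2-fold for GINS1, POLE and RPA3. After ENSG00000226958 was removed, 22 members were above 0 and 17 below, with a median of 0.05, beside -0.04 over all genes.

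With Nrf2 siRNA, most replication genes had means below scramble, by small amounts. Of the 39, 30 had a difference below 0 and 9 above, against 47.5% of all genes below 0 and 52% above. The median was -0.14, beside 0.02 over all genes tested. Calls numbered 0 (limma), against 0.333% of all genes, and 4, RRM2, ORC1, POLE2 and RFC3, had an unadjusted p under 0.05, all of them lower, against 12.2% of all genes in either direction. The lowest adjusted p was 0.256, for RRM2. All 3 siRNA samples lay below all 3 scramble samples for 9 members, against 9.26% of all genes. These were ORC1, ORC6, MCM7, GINS1, POLE2, RFC2, RFC3, RRM1 and RRM2. No member lay wholly above, against 13.6% of all genes. The 95% interval stayed within 2-fold for 36 members, against 79.5%, and reached past it for POLE2, RFC4 and RPA3. The median lay between -0.19 and -0.10 when each sample was left out in turn, and 31 members were below 0 after ENSG00000226958 was removed.

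With the double siRNA the set was split evenly, 20 members above scramble and 19 below (50.8% of all genes were above and 48.5% below), with a median difference of 0.00 beside 0.01 over all genes tested. This split rested on the scaling and on single samples. After ENSG00000226958 was removed, 9 members were above and 30 below, with a median of -0.09 beside -0.08 over all genes. The median was -0.172 without double siRNA replicate 3 and 0.165 without double siRNA replicate 1. It lay between -0.02 and 0.01 without any 1 of the other 4 samples, and at 0.02 without double siRNA replicates 1 and 3 together. In limma 0 members were called, against 0.753% of all genes. Without those 2 samples the group is 1 sample whose spread is taken from the other groups, so its count of calls carries little. An unadjusted p under 0.05 was seen for 3, against 14.2% of all genes, with POLD1 higher and GINS1 and RPA3 lower, and the lowest adjusted p was 0.163, for GINS1. All 3 siRNA samples lay above scramble for MCM7, POLD1 and POLD2, against 10.2% of all genes, and below for GINS1 and POLE2, against 7.82%. The 95% interval stayed within 2-fold for 35 members, against 78.5%, and reached past it for GINS1, POLD1, POLE2 and RPA3.

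**Figure D3:**
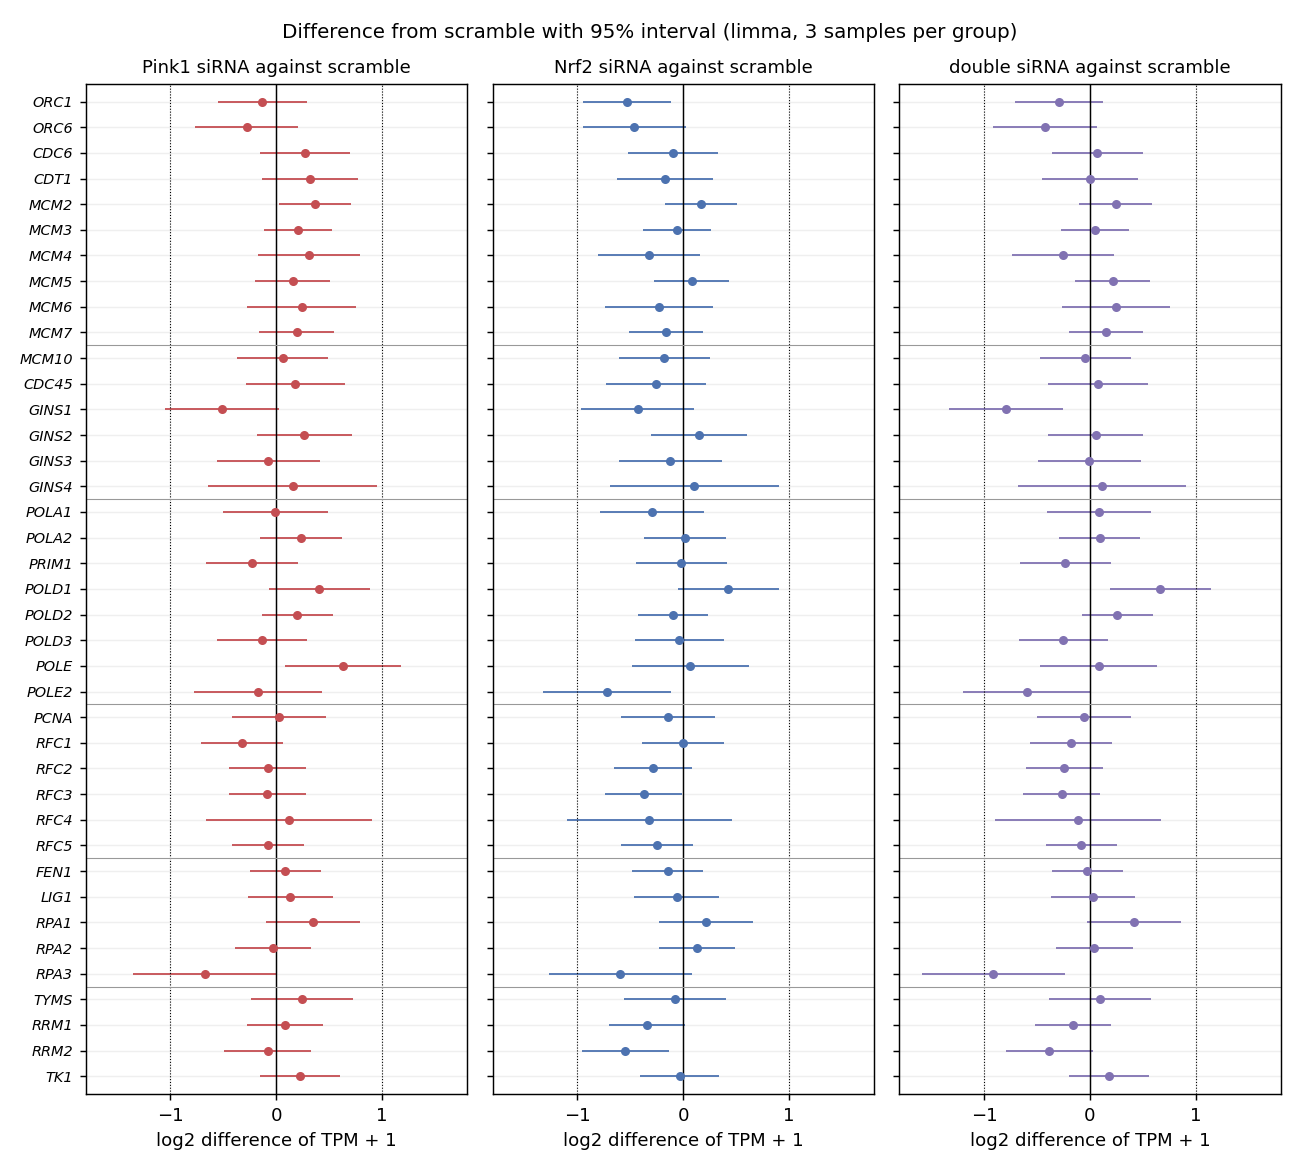
Log2 difference of TPM + 1 from scramble for each of the 39 genes (rows, grouped by role), with its 95% interval from limma, for Pink1 siRNA, Nrf2 siRNA and the double siRNA. Dotted lines mark 2-fold. No gene was called in any panel, and 30 of 39 points lie left of 0 for Nrf2 siRNA.

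Origin licensing factors had higher means with Pink1 siRNA than with Nrf2 siRNA. All 10 had a higher mean log2 level with Pink1 siRNA under each of the 5 scalings tried, although none was called. Of all genes, 50.7% were higher in this comparison on deposited TPM. ORC6 changed sign in 1 other setting, to -0.129. The median of the 10 was 0.36 on deposited TPM and 0.31 with ENSG00000226958 removed. MCM2, a subunit of the MCM ring, stood at 54.9, 59.5 and 74.8 TPM with Pink1 siRNA, 49.7, 54.0 and 60.1 TPM with Nrf2 siRNA, 50.9, 54.6 and 67.7 TPM with the double siRNA, and 44.9, 51.3 and 49.0 TPM with scramble. Its Pink1 siRNA samples lay wholly above scramble, and the other groups overlapped scramble. The differences were 0.37 (SE 0.16, adjusted p = 0.369), 0.17 (adjusted p = 0.73) and 0.24 (adjusted p = 0.528) in limma, and the Pink1 siRNA difference was 0.239 without Pink1 siRNA replicate 3. CDC6, which helps load the ring, stood at 24.9, 23.8 and 25.8 TPM with Pink1 siRNA, 18.2, 17.4 and 21.7 TPM with Nrf2 siRNA, 15.4, 21.9 and 29.2 TPM with the double siRNA, and 21.0, 22.8 and 17.8 TPM with scramble. Again the Pink1 siRNA samples stood wholly above scramble, by 0.27 (SE 0.20, adjusted p = 0.617), while the double siRNA samples spanned all the others.

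ORC6, a subunit of the origin recognition complex, stood at 11.1, 13.4 and 9.67 TPM with Pink1 siRNA, 9.14, 11.5 and 8.95 TPM with Nrf2 siRNA, 6.84, 10.4 and 14.3 TPM with the double siRNA, and 12.9, 12.6 and 16.6 TPM with scramble. Its Nrf2 siRNA samples lay wholly below scramble (difference -0.46, SE 0.23, adjusted p = 0.443), and in the double siRNA group replicate 3 overlapped scramble. The double siRNA difference was -0.42 (adjusted p = 0.427), and was -0.174 without double siRNA replicate 1, -0.655 without replicate 3 and -0.384 without both. The Pink1 siRNA difference was -0.28 (adjusted p = 0.655), and was -0.177 without Pink1 siRNA replicate 3 and -0.159 without scramble replicate 3. ORC1, the largest subunit of the same complex, averaged 5.50 ± 1.02 TPM with Pink1 siRNA, 3.93 ± 0.67 TPM with Nrf2 siRNA, 4.82 ± 1.04 TPM with the double siRNA and 6.07 ± 0.51 TPM with scramble. Its Nrf2 siRNA mean was 64.7% of scramble (difference -0.53, 95% interval -0.94 to -0.11, adjusted p = 0.272). MCM4, another subunit of the ring, averaged 62.3 ± 14.4, 39.3 ± 3.01, 42.2 ± 11.98 and 50.1 ± 11.5 TPM with Pink1, Nrf2, double and scramble siRNA. It had the lowest adjusted p of the set for Pink1 siRNA against Nrf2 siRNA, 0.27, at a difference of 0.63. MCM3, MCM5, MCM6, MCM7 and the loader CDT1 had group means between 87.6% and 125% of scramble.

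The helicase activators held the member with the lowest adjusted p against scramble. GINS1, a subunit of the GINS complex at a level below the naming minimum of 5 TPM, is named after its values were seen. It stood at 4.07, 5.29 and 3.17 TPM with Pink1 siRNA, 5.10, 3.57 and 4.63 TPM with Nrf2 siRNA, 2.15, 5.17 and 2.77 TPM with the double siRNA, and 6.75, 6.05 and 6.03 TPM with scramble. All 9 siRNA samples lay below all 3 scramble samples, and the share of all genes that did so was not counted. The double siRNA mean was 53.6% of scramble (difference -0.80, SE 0.25, 95% interval -1.33 to -0.26, adjusted p = 0.163). That difference rested on double siRNA replicates 1 and 3, without which it was -0.236; it was -0.591 without replicate 1 alone and -0.72 without replicate 3 alone. Its partner subunits did not share this: GINS2 averaged 12.3 ± 1.21, 11.4 ± 2.21, 10.7 ± 2.76 and 10.2 ± 2.31 TPM, and GINS3 9.23 ± 2.07, 8.82 ± 1.31, 9.98 ± 3.58 and 9.63 ± 0.39 TPM with Pink1, Nrf2, double and scramble siRNA. GINS4 ranged between 2.31 and 8.34 TPM within the Nrf2 siRNA group alone. CDC45, which joins GINS on the ring, averaged 15.1 ± 1.24, 11.1 ± 2.96, 14.2 ± 3.42 and 13.3 ± 2.27 TPM, and MCM10, which helps start unwinding, 9.42 ± 0.90, 7.84 ± 0.70, 8.90 ± 2.56 and 9.07 ± 1.68 TPM.

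Among the polymerases, subunits of one enzyme stood differently, and none passed the test. POLE, the catalytic subunit of leading-strand polymerase epsilon, stood at 20.8, 15.7 and 16.2 TPM with Pink1 siRNA, 9.90, 11.1 and 13.6 TPM with Nrf2 siRNA, 12.8, 7.09 and 16.9 TPM with the double siRNA, and 13.1, 11.2 and 8.74 TPM with scramble. The Pink1 siRNA samples lay above every Nrf2 siRNA and scramble sample (against scramble 0.63, SE 0.26, 95% interval 0.08 to 1.18, adjusted p = 0.339). POLE2, the second subunit of that enzyme, stood at 9.43, 17.9 and 6.97 TPM with Pink1 siRNA, 7.87, 5.69 and 7.57 TPM with Nrf2 siRNA, 5.80, 7.97 and 9.79 TPM with the double siRNA, and 13.0, 10.1 and 13.6 TPM with scramble. The Nrf2 siRNA and double siRNA samples lay wholly below scramble, at 57.6% and 64.2% of its mean. The differences were -0.72 (SE 0.28, adjusted p = 0.306) and -0.59 (adjusted p = 0.361). POLE2 is also the member whose technical replicates differed most, at 3.84 and 11.3 TPM for Nrf2 siRNA replicate 3.

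POLD1, the catalytic subunit of lagging-strand polymerase delta, stood at 17.1, 20.1 and 25.6 TPM with Pink1 siRNA, 17.1, 30.3 and 17.7 TPM with Nrf2 siRNA, 27.0, 22.4 and 25.4 TPM with the double siRNA, and 13.2, 14.8 and 18.5 TPM with scramble. The double siRNA samples lay wholly above scramble, at 161% of its mean, and the single siRNA groups overlapped it. The differences from scramble were 0.41 (adjusted p = 0.492), 0.43 (adjusted p = 0.478) and 0.66 (SE 0.22, 95% interval 0.19 to 1.14, adjusted p = 0.194). The Nrf2 siRNA difference was 0.173 without Nrf2 siRNA replicate 2, and the Pink1 siRNA difference 0.259 without Pink1 siRNA replicate 3. POLD2, its accessory subunit, stood at 101.6, 106 and 139 TPM with Pink1 siRNA, 103.5, 91.5 and 85.1 TPM with Nrf2 siRNA, 119, 105 and 135 TPM with the double siRNA, and 99.5, 96.0 and 103.4 TPM with scramble. Its double siRNA samples lay wholly above both scramble and Nrf2 siRNA samples (0.26 against scramble, adjusted p = 0.481; 0.35 against Nrf2 siRNA, adjusted p = 0.693). Without double siRNA replicates 1 and 3, POLD1 differed from scramble by 0.515, POLD2 by 0.0806 and POLE2 by -0.55, and POLD2 by 0.167 without replicate 3 alone. POLA1, the catalytic subunit of the priming polymerase alpha, stood at 11.2, 9.95 and 8.01 TPM with Pink1 siRNA, 9.58, 6.07 and 7.90 TPM with Nrf2 siRNA, 7.74, 10.5 and 13.6 TPM with the double siRNA, and 8.74, 12.7 and 8.22 TPM with scramble, overlapping throughout. POLA2, the primase subunit PRIM1 and POLD3 had differences from scramble between -0.25 and 0.23.

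The sliding clamp and its loader held no called gene. PCNA stood at 184, 214 and 173 TPM with Pink1 siRNA, 172, 169.9 and 164 TPM with Nrf2 siRNA, 123, 189.7 and 244 TPM with the double siRNA, and 168, 195 and 196 TPM with scramble. The double siRNA samples spanned the range of all 12, and Nrf2 siRNA overlapped scramble (difference -0.14, SE 0.21, adjusted p = 0.844). All 6 clamp and loader genes had log2 differences from scramble below 0 with Nrf2 and double siRNA under each of the 5 scalings. None was called. Of all genes, 47.5% and 48.5% lay below 0 in these comparisons on deposited TPM. The RFC1 difference with Nrf2 siRNA was only -0.001, and it changed sign in 6 other settings. The medians of the 6 genes were -0.27 and -0.15 on deposited TPM, and -0.29 and -0.25 with ENSG00000226958 removed. RFC3, a small loader subunit, averaged 19.0 ± 2.05 TPM with Pink1 siRNA, 15.4 ± 0.38 TPM with Nrf2 siRNA, 16.9 ± 4.07 TPM with the double siRNA and 20.2 ± 0.50 TPM with scramble. The Nrf2 siRNA difference was -0.37 (95% interval -0.74 to -0.01, adjusted p = 0.394), and those 3 samples lay wholly below scramble. RFC1, the large loader subunit, stood at 25.1, 25.9 and 23.2 TPM with Pink1 siRNA, 28.9, 26.7 and 39.3 TPM with Nrf2 siRNA, 21.9, 27.3 and 34.3 TPM with the double siRNA, and 30.6, 30.2 and 32.9 TPM with scramble. All 3 Pink1 siRNA samples lay below every scramble sample (-0.32, SE 0.18, adjusted p = 0.505). RFC2 and RFC5 had means between 81.1% and 94.9% of scramble, and RFC4 spanned 11.7 to 42.4 TPM within the double siRNA group.

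The single-strand binding protein RPA is a complex of 3 subunits, whose messages had differences of either sign and passed no test. RPA1, the large subunit, stood at 64.5, 68.7 and 86.5 TPM with Pink1 siRNA, 61.5, 62.4 and 76.1 TPM with Nrf2 siRNA, 57.8, 72.2 and 106.3 TPM with the double siRNA, and 52.9, 54.5 and 64.3 TPM with scramble. Its Pink1 siRNA samples lay just above scramble, and the other groups overlapped it. The differences were 0.34 (SE 0.21, adjusted p = 0.528), 0.22 (adjusted p = 0.737) and 0.41 (adjusted p = 0.388). The double siRNA difference was 0.177 without double siRNA replicate 3, 0.611 without replicate 1 and 0.336 without both, and the Nrf2 siRNA difference was 0.118 without Nrf2 siRNA replicate 3. RPA3, the small subunit, stood at 19.2, 21.2 and 20.3 TPM with Pink1 siRNA, 17.7, 20.5 and 27.0 TPM with Nrf2 siRNA, 11.7, 17.5 and 23.5 TPM with the double siRNA, and 18.8, 35.6 and 52.3 TPM with scramble. The spread was in the scramble group, whose replicate 1 lay below every Pink1 siRNA sample and inside the Nrf2 and double siRNA ranges. Without scramble replicate 3 the Pink1 and Nrf2 siRNA differences of -0.67 and -0.59 were -0.345 and -0.265, and without scramble replicate 1 they were -1.06 and -0.979. The double siRNA difference was -0.92 (SE 0.31, adjusted p = 0.209). It ran from -1.30 to -0.587 without each of the 6 samples in turn, the smallest size being that without scramble replicate 3, and was -0.871 without double siRNA replicates 1 and 3. RPA2, FEN1, which trims Okazaki fragments, and LIG1, which joins them, had differences from scramble between -0.15 and 0.13. FEN1, GINS2, GINS4, MCM2, MCM7, RFC4, RPA3 and TYMS share exon bases with a gene of at least 5 TPM on the opposite strand, and FEN1 with FADS2 on its own strand, so reads of these genes may be shared. The kit was stranded per the labels' protocols, but the sources used here do not say whether the counting used strand.

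Ribonucleotide reductase, which makes the deoxynucleotides, had the lowest levels with Nrf2 siRNA in both of its S-phase subunits. RRM2, the limiting subunit, stood at 78.2, 84.9 and 95.1 TPM with Pink1 siRNA, 54.2, 59.1 and 74.3 TPM with Nrf2 siRNA, 51.9, 74.5 and 86.3 TPM with the double siRNA, and 83.2, 102.4 and 88.1 TPM with scramble. Every Nrf2 siRNA sample lay below every scramble and every Pink1 siRNA sample, and the double siRNA group overlapped both. The Nrf2 siRNA mean was 68.5% of scramble (difference -0.55, SE 0.19, 95% interval -0.96 to -0.13, adjusted p = 0.256). RRM1, the large subunit, averaged 171 ± 7.17 TPM with Pink1 siRNA, 127 ± 9.13 TPM with Nrf2 siRNA, 147 ± 34.7 TPM with the double siRNA and 162 ± 9.36 TPM with scramble. Its Nrf2 siRNA samples, too, lay below all Pink1 siRNA and scramble samples (-0.34 against scramble, SE 0.16, adjusted p = 0.435).

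The thymidylate genes TYMS and TK1 also had their lowest mean with Nrf2 siRNA, but their Nrf2 siRNA samples overlapped scramble. TYMS stood at 203, 221 and 194 TPM with Pink1 siRNA, 171, 157 and 166 TPM with Nrf2 siRNA, 124, 184 and 281 TPM with the double siRNA, and 161, 179.6 and 181 TPM with scramble. Its Pink1 siRNA samples lay wholly above scramble (0.24, SE 0.22, adjusted p = 0.695), Nrf2 siRNA overlapped scramble, and the double siRNA samples held both the lowest and the highest of the 12 values. The technical replicates of those samples lay close, at 121 and 128 TPM in double siRNA replicate 1 and 282 and 281 TPM in replicate 3. TK1, which salvages thymidine, stood at 84.9, 102.7 and 122 TPM with Pink1 siRNA, 70.5, 94.6 and 92.8 TPM with Nrf2 siRNA, 90.6, 95.7 and 112 TPM with the double siRNA, and 77.5, 86.8 and 98.9 TPM with scramble. All its groups overlapped scramble, with differences of 0.22, -0.03 and 0.18 (adjusted p = 0.639, 0.968 and 0.696 in limma).

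**Figure D4:**
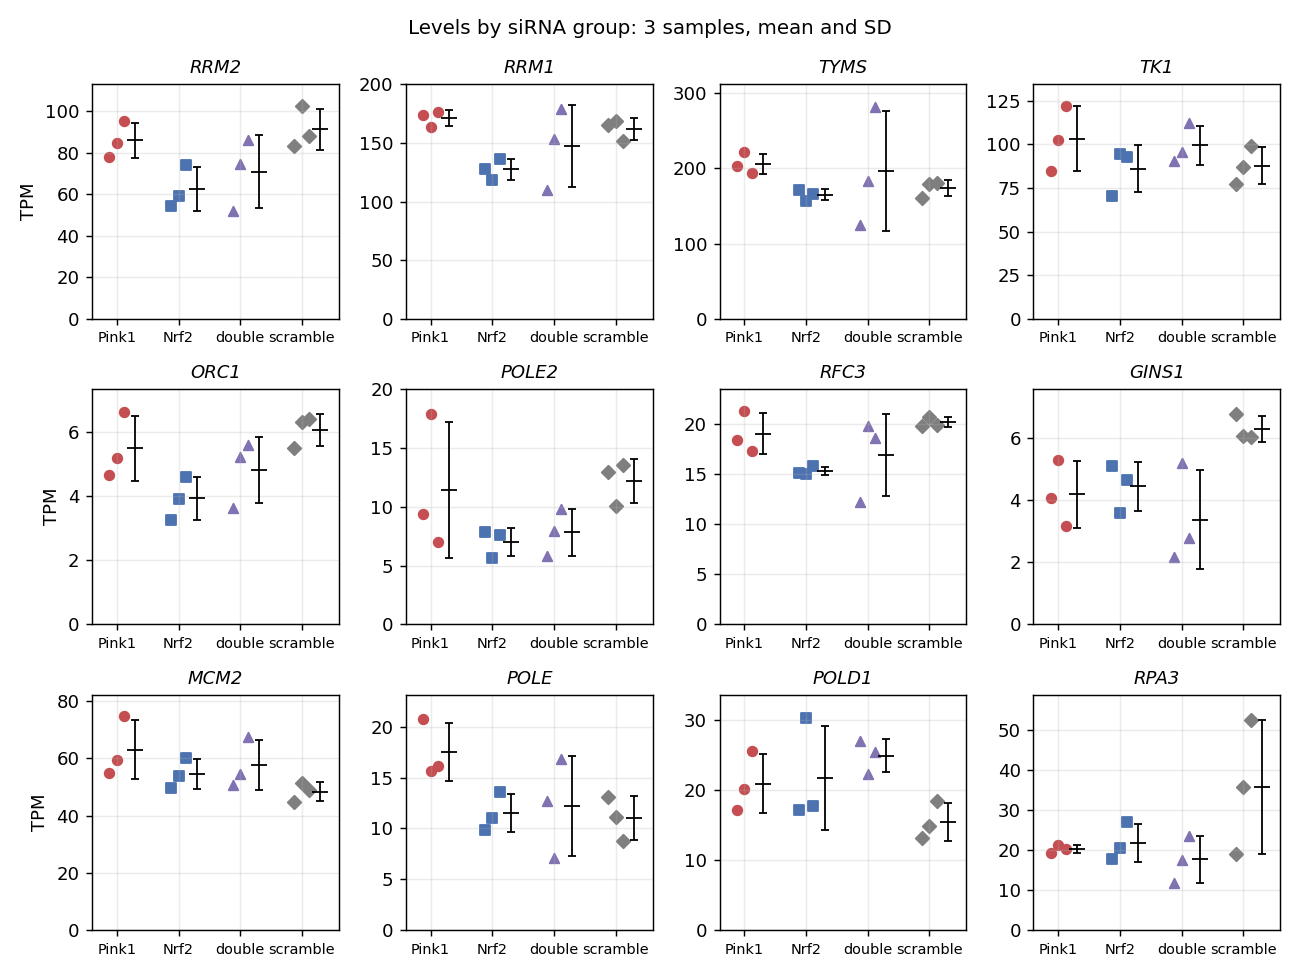
TPM of 12 replication and nucleotide synthesis genes by siRNA group: each point is a biological sample, and the bar beside it the mean and SD of 3. The Nrf2 siRNA points of RRM2, RRM1, ORC1, POLE2 and RFC3 lie below all scramble points, all siRNA points of GINS1 do, and the scramble points of RPA3 spread from 18.8 to 52.3 TPM.

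Of the 6 pairwise comparisons, Pink1 siRNA against Nrf2 siRNA gave the largest median difference in the set. Of the 39 genes, 32 were higher with Pink1 siRNA than with Nrf2 siRNA, and 7 lower, against 50.7% and 48.7% of all genes, with a median difference of 0.23 beside 0.01 over all genes tested. All 3 Pink1 siRNA samples lay above all 3 Nrf2 siRNA samples for 12 members, against 9.41% of all genes, and below for 2, RFC1 and RPA2, against 9.42%. Again 0 members were called (limma), against 0.992% of all genes. An unadjusted p under 0.05 was reached by 6, all higher with Pink1 siRNA, against 11.2% of all genes in either direction. The 95% interval stayed within 2-fold for 35 members, against 80% of all genes. The lowest adjusted p was 0.27, for MCM4, and the split was 31 to 8 after ENSG00000226958 was removed.

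No member passed the test when the double siRNA was set against either single siRNA. Against Pink1 siRNA, 30 members were lower with the double siRNA and 9 higher, against 51.6% and 47.7% of all genes, with a median of -0.12 beside -0.01. Calls in limma numbered 0, against 0.0434% of all genes, 1 (MCM4, lower) had an unadjusted p under 0.05, against 5.8%, and the lowest adjusted p was 0.746. The 95% interval stayed within 2-fold for 35 members, against 83.3% of all genes. Against Nrf2 siRNA, 32 members were higher with the double siRNA and 7 lower, against 48.5% and 50.9% of all genes, with a median of 0.12 beside -0.01. In limma none was called, against 0.0145% of all genes, 1 (POLD2, higher) had an unadjusted p under 0.05, against 6.95%, and the lowest adjusted p was 0.693. The 95% interval stayed within 2-fold for 38 members, against 82.1%. After ENSG00000226958 was removed, the last split was 24 higher and 15 lower. All 3 double siRNA samples lay above Nrf2 siRNA for MCM7 and POLD2, against 3.83% of all genes, and below for none, against 5.66%. For no member did they lie wholly above or below Pink1 siRNA, against 3.18% and 5.68% of all genes.

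The main effects use 6 samples a side, and so share their samples with the comparisons above. For Nrf2 siRNA, with or without Pink1 siRNA, 32 members were below 0 and 7 above, against 49.6% of all genes below and 50.4% above, with a median of -0.11 beside 0.00. None was called in limma, against 0.731% of all genes, and 7 had an unadjusted p under 0.05, against 11.5%. The 6 that were lower were ORC1, MCM4, POLE2, RFC3, RRM1 and RRM2, and POLD1 was higher. For no member did all 6 samples with Nrf2 siRNA lie above or below all 6 without, against 0.55% and 0.659% of all genes. The 95% interval stayed within 2-fold for all 39, against 91.4%. RRM2 came closest, at -0.42 (SE 0.14, 95% interval -0.72 to -0.13, adjusted p = 0.195). Its adjusted p was 0.0422 after median-of-ratios rescaling, 0.0354 after quantile normalization, 0.0414 with ENSG00000226958 removed and 0.0304 with array weights. RRM1, at -0.29 (adjusted p = 0.341), reached 0.0366 with quantile normalization and 0.0432 with array weights. Neither was called in any of 12 fits that left out 1 sample, where RRM2 ran from -0.50 to -0.32. Shares of all genes called in the Nrf2 main effect under these other settings are not given here. Array weights called far more genes than the main fit for the double siRNA against scramble, as given below.

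For Pink1 siRNA, with or without Nrf2 siRNA, 30 members were above 0 and 9 below, against 52% and 48% of all genes, with a median of 0.11 beside 0.01. After ENSG00000226958 was removed the split was 24 above and 15 below, with a median of 0.03. Members called numbered 0, against 0.652% of all genes, and 4 had an unadjusted p under 0.05, against 13.6%: MCM7 and POLD2 higher, GINS1 and RPA3 lower. The lowest adjusted p was 0.287. No member had its groups of 6 wholly apart, against 0.695% of all genes higher and 0.558% lower, and the 95% interval stayed within 2-fold for all 39, against 91.5%. The interaction, which asks whether one siRNA was followed by a different change in the presence of the other, called no member and no gene of the 13810, and no member had an unadjusted p under 0.05, against 5.45% of all genes. Its 95% interval stayed within 2-fold for 32 of the 39, against 58.7%.

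Genes of the same pathway outside the set were counted in the same fit. Over all genes, at most 0.992% were called in any pairwise comparison, main effect or interaction. Of 30 other replication factors, none was called in any comparison. Closest were DBF4, the activator of the origin-firing kinase CDC7, at 8.89 ± 1.31 TPM with the double siRNA and 14.8 ± 2.98 TPM with scramble (-0.66, adjusted p = 0.163), and RECQL4, a helicase at origins, at 21.0 ± 0.48 TPM with Pink1 siRNA and 13.4 ± 3.07 TPM with Nrf2 siRNA (0.63, adjusted p = 0.157). Of 8 chromatin assembly genes tested, none was called. The histone chaperone ASF1A averaged 6.01 ± 1.78, 9.55 ± 1.40, 7.13 ± 1.88 and 10.4 ± 0.60 TPM with Pink1, Nrf2, double and scramble siRNA (Pink1 main effect -0.56, adjusted p = 0.109). HELLS, a chromatin remodeller, averaged 15.3 ± 3.32, 12.8 ± 3.34, 11.3 ± 1.54 and 16.4 ± 2.05 TPM (Nrf2 main effect -0.38, adjusted p = 0.324).

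Of 26 other nucleotide synthesis genes, 1 was called, in 1 comparison, Pink1 siRNA against Nrf2 siRNA. That comparison called 0.992% of all genes tested. SAMHD1, which breaks deoxynucleotides down, stood at 9.19, 13.4 and 7.56 TPM with Pink1 siRNA, 24.4, 61.5 and 34.2 TPM with Nrf2 siRNA, 7.82, 13.1 and 15.0 TPM with the double siRNA, and 9.23, 23.2 and 19.99 TPM with scramble. Its Nrf2 siRNA samples lay above all others. Pink1 siRNA against Nrf2 siRNA gave -1.82 (SE 0.37, adjusted p = 0.0388), and Nrf2 siRNA against scramble 1.14 (adjusted p = 0.222). The call held in 1 of 6 fits that left out 1 sample, the one without Nrf2 siRNA replicate 1 (-2.12). It was lost without Pink1 siRNA replicate 1 (-1.78), 2 (-2.03) or 3 (-1.66) and without Nrf2 siRNA replicate 2 (-1.47) or 3 (-1.89). CD68, too, was highest in Nrf2 siRNA replicate 2, standing at 25.2, 30.5 and 31.0 TPM with Pink1 siRNA, 42.3, 104.8 and 52.7 TPM with Nrf2 siRNA, 34.1, 34.8 and 52.5 TPM with the double siRNA and 19.3, 33.8 and 37.9 TPM with scramble. The other 6 markers of other cells in the table averaged at most 0.407 TPM, and the part of CD68-expressing cells in the result was not tested.

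Of 28 tested genes of the E2F, RB and G1/S control list, 1 was called, in the Nrf2 main effect, which called 0.731% of all genes. RB1, the retinoblastoma protein that restrains E2F, stood at 17.2, 18.4 and 12.6 TPM with Pink1 siRNA, 11.3, 8.39 and 10.1 TPM with Nrf2 siRNA, 8.74, 13.6 and 10.7 TPM with the double siRNA, and 23.0, 19.9 and 17.9 TPM with scramble. It fell with Nrf2 siRNA in the main effect, by 0.74 on the log2 scale (SE 0.14, adjusted p = 0.0261), with the Nrf2 siRNA and double siRNA samples all below scramble. The single comparisons gave -0.96 with Nrf2 siRNA (adjusted p = 0.0602) and -0.84 with the double siRNA (adjusted p = 0.0707). The main effect call held in 4 of 12 fits that left out 1 sample. It was lost without Pink1 siRNA replicate 1 (-0.71) or 2 (-0.69), Nrf2 siRNA replicate 2 (-0.68) or 3 (-0.74), double siRNA replicate 3 (-0.73), or scramble replicate 1 (-0.69), 2 (-0.74) or 3 (-0.78).

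Mitotic genes, which peak after replication, lay on the same side as the replication genes in the Nrf2 main effect. Of 18, 16 were below 0, against 49.6% of all genes, with a median of -0.18 beside 0.00. For Pink1 siRNA against Nrf2 siRNA, 17 of the 18 were above 0, against 50.7%, with a median of 0.24 beside 0.01. With the double siRNA against scramble, 14 of the 18 were below 0, against 48.5%, with a median of -0.12. The replication genes were split there, 20 above and 19 below. No mitotic gene was called in any comparison. CDK1, the mitotic kinase, averaged 54.3 ± 6.75, 41.3 ± 5.38, 49.6 ± 15.2 and 65.0 ± 4.12 TPM with Pink1, Nrf2, double and scramble siRNA (Nrf2 siRNA against scramble -0.65, adjusted p = 0.216). PLK1, a kinase of the spindle, averaged 53.7 ± 5.35 TPM with Pink1 siRNA and 39.6 ± 2.98 TPM with Nrf2 siRNA (0.43, adjusted p = 0.243).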

How the data were processed

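The deposited table holds TPM, computed by the authors for 24 columns (12 biological samples with 2 technical replicates each); per the submitters' processing notes STAR, RSEM and edgeR and the builds GRCh37 and hg19 were used, with no versions given. Libraries were stranded and made from mRNA, per the labels' protocols. TPM does not hold read numbers, so depth is unknown and no counting interval is given; precision comes from the spread of samples. Column sums were 999678 to 999945. Of 24053 identifiers, 22789 were in the name table and 19325 had a symbol.

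Technical pairs were averaged, and log2(TPM + 1) was fitted, for the 13810 genes averaging 1 TPM or more, with limma 3.58.1 (R 4.3.3, trended prior, 8 residual and 4.93 prior degrees of freedom), the 4 groups in 1 fit without covariates. Differences are on the log2(TPM + 1) scale, which understates changes of low genes. Tests were two-sided, p was adjusted over all genes tested (Benjamini-Hochberg), and a gene was called under 0.05. A permutation test of 3 samples against 3 cannot go below p = 0.1. Main effects set the 6 samples with an siRNA against the 6 without; the interaction is double minus Pink1 minus Nrf2 plus scramble. The fit was tested on simulated data for Pink1 siRNA against scramble. There it called 7 of 50 changes of 0.58 on the log2 scale and 27 of 50 changes of 1. A lack of calls therefore does not exclude changes of these sizes.

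Per-sample values are given for called members, for the 3 largest differences per direction against scramble among members averaging 5 TPM or more, and for MCM2, CDC6, PCNA, POLA1, RRM2, TYMS and TK1. From each of the 7 other lists, called genes or the 2 with the smallest p are named. The members, lists and tests were chosen with earlier results of these data known. Promoter windows are RefSeq's for GRCh38.p14, matched by symbol, and were used for sequence only. Alternatives were other pseudocounts, filters, scalings, weights, the replicate number as a block, single technical replicates, and leaving out samples.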

Additional observations from a re-analysis of the deposited data

How the results depend on the processing

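Recomputing 35 results under 26 other settings gave 717 values, of which 675 kept their direction and side of the threshold, or moved by less than the replicate spread. The median difference of the double siRNA from scramble, 0.00429, had the opposite sign under 9 of 20 settings. None of the other differences among these results changed sign, but they were medians and genes chosen mostly for large differences. Other member differences did change sign, such as PCNA with Pink1 siRNA (0.0274) in 5 settings and RFC1 with Nrf2 siRNA (-0.00107) in 6. No member was called in any fit that left out 1 sample. The double siRNA median ran from -0.172, without double siRNA replicate 3, to 0.165, without replicate 1. In the Nrf2 main effect 1 member was called after median-of-ratios rescaling, 2 after quantile normalization, 1 with ENSG00000226958 removed and 7 with array weights. Array weights also called 6 members for the double siRNA against scramble, 5 for it against Pink1 siRNA, 4 against Nrf2 siRNA, 2 for Pink1 siRNA against Nrf2 siRNA, 2 in the Pink1 main effect, 1 in the interaction and 8 in the test of any difference. That setting called 3067 of the 13810 genes tested for the double siRNA against scramble, and the cause was not tested. The shares of all genes beside the other counts are not given here, so those counts are not a result particular to the members. Same-numbered replicates deviated together with r from -0.0846 to 0.113, and 1 of 18 pairs was over 0.1. With 3 samples a group, these values cannot tell whether the numbers mark shared cultures. With the replicate number as a block 0 members were called. Each of 4 of 12 samples correlated best with its own number. Leaving out double siRNA replicates 1 and 3, and centring on the median gene, were chosen after seeing the data. Centring called no member, and the other leaves 1 double siRNA sample, assumed to vary like the other groups, so its lack of calls says little. The number of samples, 3 a group, and an unknown depth limit the precision.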

Other observations

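Genes that act upstream of the replication set were examined after their values were seen. E2F1, a main activator of replication genes, stood at 23.7, 25.5 and 28.1 TPM with Pink1 siRNA, 15.9, 19.0 and 16.7 TPM with Nrf2 siRNA, 18.3, 16.3 and 17.2 TPM with the double siRNA, and 16.8, 19.5 and 21.6 TPM with scramble. Its Pink1 siRNA samples were the highest of the 12, without passing the test (limma, Pink1 siRNA against Nrf2 siRNA 0.56, adjusted p = 0.0935; against scramble 0.40, adjusted p = 0.254). CCNE1, the cyclin that drives entry into S phase, stood at 12.7, 17.5 and 13.4 TPM with Pink1 siRNA, 7.10, 6.55 and 9.32 TPM with Nrf2 siRNA, 7.12, 8.49 and 13.5 TPM with the double siRNA, and 10.3, 11.5 and 10.3 TPM with scramble. The Nrf2 siRNA samples lay wholly below both Pink1 siRNA (0.85 for Pink1 siRNA against Nrf2 siRNA, adjusted p = 0.0933) and scramble.

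CCND1, the G1 cyclin, averaged 261 ± 14.3 TPM with Pink1 siRNA, 243 ± 27.6 TPM with Nrf2 siRNA, 237 ± 8.49 TPM with the double siRNA and 195.5 ± 8.34 TPM with scramble, with all 9 siRNA samples above all 3 scramble samples. It did not pass the test (adjusted p = 0.205, 0.339 and 0.347). CDKN1A, a p53 target that blocks cyclin-dependent kinases, averaged 267 ± 26.1, 258 ± 26.9, 268 ± 7.88 and 219 ± 8.70 TPM in the same groups. Again all 9 siRNA samples lay above scramble (double siRNA 0.29, adjusted p = 0.34). The share of all genes with all 9 above scramble was not counted. In limma's moderated F test the unadjusted p was 0.0359 for CCND1 and 0.14 for CDKN1A. It was lower for CDKN2D (0.0051) and SKP2 (0.0209) of the same list, which are not described here.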
